A study of Homo sapiens with 16 samples.

Results

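The genes of the proteasome, the protease that degrades ubiquitin-tagged proteins, were examined in Caco-2 cells, a line from a human colorectal adenocarcinoma with epithelial character. Members were chosen by name alone, as every non-control probe whose gene name on the array began with PSM, a letter from A to G and a number. This found 62 probes of 44 genes among 30982 gene names, and a gene with more than 1 probe (14 genes) was taken by its brightest probe. Of the 44 genes, 43 encode subunits, regulators or assembly factors of the proteasome. PSMC3IP, a meiotic recombination protein, has a name of the same form and is listed apart. Undifferentiated cells were kept for 6 h in medium alone (MED-CTL) or were given a blank digest of pepsin and trypsin with no substrate (PT), gliadin digested with the same enzymes (PT-G) or the synthetic gliadin peptide p31-43 at 150 µg/ml. The enzymes in both digests had been inactivated by heat, the medium held 1% serum, and all cells, MED-CTL included, were detached with trypsin-EDTA before RNA was extracted. Each condition had 4 arrays, and the 4 experiments used cells of 1 line at nearby passages, so p-values measure the spread between these cultures and arrays.

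The proteasome consists of a barrel-shaped core particle (20S) and caps. Rings of alpha subunits (PSMA) gate the core, rings of beta subunits (PSMB) enclose its proteolytic sites, and the 19S cap unfolds substrates with a ring of ATPases (PSMC) held by non-ATPase subunits (PSMD). Under interferon the catalytic subunits PSMB5, PSMB6 and PSMB7 are replaced by PSMB8, PSMB9 and PSMB10, which make the immunoproteasome. PSME genes encode alternative caps, and PSMF1 an inhibitor. When the proteasome is overloaded, the transcription factor NFE2L1 with a small MAF partner is known to raise the subunit genes together through antioxidant response elements, which NFE2L2 also binds.

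The arrays had median spot intensities between 153 and 410 over a local background between 48 and 65, and between 27660 and 33947 of their 45015 spots were well above background. The 4 runs are sets of arrays that share a date in their deposited names, with 1 array of each condition per run, and the arrays lay on 5 slides. Runs 1 and 2 are called early and runs 3 and 4 late, and each slide was scanned by itself. Slide 3 held replicate 3 of MED-CTL, p31-43 and PT-G, and these 3 arrays stood apart for several members, as described below. All 9 epithelial markers examined, EPCAM (TACSTD1 on the array), keratins, CDH1 and VIL1 among them, were well above background on all 16 arrays. Of the 10 leukocyte and fibroblast markers, 7 were well above background on all 16 arrays, and the defining markers PTPRC and COL1A2 on none. None of the 10 passed a nominal p under 0.01 against MED-CTL in any condition, and their part in the results was not tested. RNA came from whole cultures, so fewer expressing cells and less RNA per cell cannot be told apart.

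Of the 44 members, 43 were well above background on all 16 arrays and no member spot was saturated. PSMA8, an alpha subunit known from testis, was well above background on no array. It lay between 5.67 and 5.89 on the log2 intensity scale in all conditions, so its level has only an upper bound here. Counts of members that were higher, lower or inside an interval are therefore over the other 43. Medians are over all 44, and without PSMA8 they were -0.029, 0.009 and 0.065 for PT-G, PT and p31-43 against MED-CTL. The thymic subunit PSMB11 was not named on the array. The core assembly chaperones PSMG1, PSMG2 and PSMG3 were present under older names (DSCR2, TNFSF5IP1 and MGC10911), found through their RefSeq accessions after the values had been seen. Against MED-CTL they differed by between -0.12 and 0.11 on the log2 scale in the 3 treated conditions, with standard errors between 0.14 and 0.21. NIP30, found in the same way, has the current name PSME3IP1, a protein that binds the PSME3 cap. It differed by -0.30 ± 0.14 after PT-G, -0.38 ± 0.14 after PT and -0.03 ± 0.14 with p31-43, with no nominal p under 0.01 in limma's unblocked fit. Blocking limma on run gave a p of 0.00373 after PT (adjusted p = 0.0542). Blocking on slide gave 0.00539 after PT (adjusted p = 0.0647) and 0.00553 after PT-G (adjusted p = 0.0557).

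Promoters are shown for some of the members that hold a motif bound by the regulators described below. The question whether the subunit genes moved with those regulators runs through the results. RefSeq promoter windows of 250 bases before the start (GRCh38.p14) were found for 39 of the 44 members. The antioxidant response element core, TGACNNNGC on either strand, occurred in the windows of 11 members (28.2%), against 13.2% of all 27305 genes with such a window. The CCAAT box, CCAAT on either strand, occurred in 18 members (46.2%) and in 37% of all genes. The interferon-stimulated response element core occurred in 4 members (10.3%) and 3.71% of genes, and the gamma interferon activation site (TTCNNNGAA) in 7 members (17.9%) and 8.09% of genes, on either strand. A match to these letters is a description and not a binding site, and several members have more than 1 annotated start. Overlap of the window with annotated genes was checked only for members named singly by the rule given under processing. Among these, the genes with an antioxidant response element match in a window that overlaps no annotated gene were PSMB3, a structural beta subunit, and PSMB9, an immunoproteasome subunit. Their windows are given 5′ to 3′ on the + strand, at chr17:38752491-38752740 for PSMB3 and chr6:32853942-32854191 for PSMB9, with the match in capitals. The match begins 104 bases before the start of PSMB3 and 148 bases before that of PSMB9, where it lies on the opposite strand.
PSMB3: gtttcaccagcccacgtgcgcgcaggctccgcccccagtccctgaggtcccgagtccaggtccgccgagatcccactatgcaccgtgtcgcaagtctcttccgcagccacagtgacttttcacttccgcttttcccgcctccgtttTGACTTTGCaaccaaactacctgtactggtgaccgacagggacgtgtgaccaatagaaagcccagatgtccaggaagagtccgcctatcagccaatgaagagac
PSMB9: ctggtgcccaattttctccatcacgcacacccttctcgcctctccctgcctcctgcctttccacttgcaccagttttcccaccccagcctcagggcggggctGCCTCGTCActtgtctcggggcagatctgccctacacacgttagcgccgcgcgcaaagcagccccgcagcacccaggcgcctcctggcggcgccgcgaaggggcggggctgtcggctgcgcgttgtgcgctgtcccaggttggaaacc

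In the unblocked fit of all arrays, no proteasome gene passed a threshold in PT-G against medium. None of the 44 members passed the nominal p under 0.01 in limma's moderated test, where 3.44% of the 40982 probes tested did, and none had a p under 0.05, where 7.98% of probes did. None passed an adjusted p under 0.05, against 0.944% of probes. No member had PT-G arrays that were all above or all below those of MED-CTL, against 3.87% of all probes. The differences from MED-CTL lay between -0.28 (PSMD2, a large scaffold subunit of the cap) and 0.34 (PSMB9) on the log2 scale. Their median was -0.026, with 14 of 43 members higher and 29 lower. The median over all probes was -0.006, and 47.9% of them were higher. Under median scaling the members' median turned to 0.049, where that of all probes was -0.042. The 95% interval lay inside 1.5-fold in either direction for 36 of 43 members and inside 2-fold for 42, a summary added after the data were seen; 63.6% of all probes lay inside 1.5-fold. The smallest p-values belonged to the beta subunit PSMB1 (-0.18 ± 0.09 standard error, adjusted p = 0.708 with limma), PSMF1 (-0.19 ± 0.10, adjusted p = 0.712) and the alpha subunit PSMA5 (-0.14 ± 0.07, adjusted p = 0.737).

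In the unblocked fit, PT against medium gave 1 nominal call and no adjusted one. PSMF1, which encodes the inhibitor PI31 and has also been linked to assembly of the 26S particle, was the member with a nominal p under 0.01, where 3.64% of all probes passed and 1.84% passed on the lower side. Its log2 intensity was 12.80, 12.75, 12.75 and 12.85 on the MED-CTL arrays and 12.47, 12.58, 12.55 and 12.31 on the PT arrays. The groups did not overlap, a pattern shown by PSMF1 among the members and by 5.07% of all probes. The difference was -0.31 ± 0.10 (0.805-fold, 95% interval -0.52 to -0.11), and the adjusted p was 0.208 with limma. The second PSMF1 probe, also well above background on all arrays, differed by 0.12 ± 0.23, and the nominal call was lost when the probes were averaged, under median scaling, with the processed signal, with dim probes left out, within the early or the late runs alone, and without MED-CTL replicate 1 or 4 or PT replicate 1 or 4. Over single arrays left out the difference ran from -0.35 to -0.26.

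In PT-G, the PSMF1 arrays of the early runs lay at 12.40 and 12.49 and those of the late runs at 12.79 and 12.73. The early pair lay within the range of the PT arrays, and the late pair above all of them. The difference from MED-CTL was -0.33 within the early runs and -0.04 within the late runs. In p31-43 the values were 12.64, 12.71, 12.94 and 12.85, a difference of 0.00 ± 0.10 from MED-CTL.

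Among the other members after PT, PSMC3IP was lower by the largest amount, -0.46 ± 0.16 (adjusted p = 0.296 with limma), with 11.34, 11.59, 11.12 and 11.30 on MED-CTL arrays and 11.25, 11.16, 10.56 and 10.53 on PT arrays. The 2 late arrays of PT were the lowest of all 16. Blocking on run gave it an adjusted p of 0.0156, blocking on slide 0.0283, and blocking on the replicate number 0.0304, so this gene outside the proteasome passed the adjusted threshold in those fits. No subunit did so when run was the block. When slide was the block, PSME4, which encodes the activator PA200, also passed, with an adjusted p of 0.0422 in limma, against 0.797 in the unblocked fit (0.15 ± 0.11). No member of the 44 passed the adjusted p under 0.05 in the unblocked fit, against 0.82% of all probes, and 5 had a p under 0.05, where 8.98% of all probes did. Member differences lay between -0.46 and 0.36, with a median of 0.006, 23 of 43 members higher and 20 lower. The median over all probes was -0.01, and 47% of them were higher. For 28 members the interval lay inside 1.5-fold, against 61.8% of all probes, and for 41 inside 2-fold.

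The peptide p31-43 likewise gave 1 nominal call, at a background of 0.388% of all probes, 0.144% on the higher side. PSMC3, an ATPase of the cap ring, measured 13.78, 13.62, 13.83 and 14.09 in MED-CTL and 14.21, 13.95, 14.18 and 14.27 with p31-43. The highest control array overlapped the treated ones, and no member's groups were fully apart, against 1.39% of all probes. The difference was 0.32 ± 0.10 (1.25-fold, 95% interval 0.10 to 0.54, adjusted p = 1 with limma), and it stayed on the higher side in both early and late runs (0.38 and 0.27). The nominal call was lost when MED-CTL replicate 1, 2 or 3, or p31-43 replicate 1, 3 or 4, was left out, and also with the processed signal, dim probes left out, only the 2 groups compared, only the early or only the late runs, a slide block (0.31) or slide 3 left out. Over single arrays left out the difference ran from 0.25 to 0.41. PSMC3 gave 0.27 ± 0.10 after PT and 0.17 ± 0.10 after PT-G, comparisons that share the MED-CTL arrays.

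PSMA1, an alpha ring subunit, had the largest difference with p31-43 (0.43 ± 0.15, adjusted p = 1 with limma), just outside the nominal threshold. Its MED-CTL arrays read 14.08, 14.18, 14.56 and 14.87, the widest spread of the 4 conditions. The p31-43 arrays read 14.80, 14.76, 14.79 and 15.08, the PT arrays 14.76, 14.65, 14.86 and 14.78, and the PT-G arrays 14.73, 14.64, 14.52 and 14.84. Both MED-CTL arrays of the early runs lay below every treated array, and those of the late runs did not. Within the early runs the differences from MED-CTL were 0.65 for p31-43, 0.58 for PT and 0.55 for PT-G, with a limma adjusted p of 0.029 for p31-43 from 2 arrays a group. Within the late runs they were 0.22, 0.11 and -0.04. The 3 differences share the same 2 control arrays. The early-run adjusted p of PSMA1 is not given here for PT or PT-G. In that fit 1 member passed the adjusted threshold after PT and 2 after PT-G, with PSMB9 among the 2. The PSMA1 call is thus not shown to be particular to p31-43. Without MED-CTL replicate 4, the difference for p31-43 was 0.58, past the nominal threshold, with an adjusted p of 0.375 in limma. With the replicate number as a block, PSMA1 joined PSMC3 past the nominal threshold, with an adjusted p of 0.915 in limma. Blocking on run did the same, with an adjusted p of 0.618 for PSMA1. The arrays of this comparison correlated less when paired by replicate number (lowest 0.262) than by run (lowest 0.538).

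In limma's unblocked fit of all arrays, no member passed the adjusted threshold with p31-43, and 2 had a p under 0.05 (2.15% of all probes did). No probe of the 40982 passed the adjusted threshold there (0%). Differences lay between -0.20 (PSME1, a subunit of the interferon-inducible cap) and 0.43, with a median of 0.051 and 25 of 43 members higher against 18 lower. The median over all probes was -0.001, and 49.6% of them were higher. With the processed signal the members' median was -0.02, where that of all probes was -0.075. The interval lay inside 1.5-fold for 31 members, against 69.7% of all probes, and inside 2-fold for all 43.

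**Figure D1:**
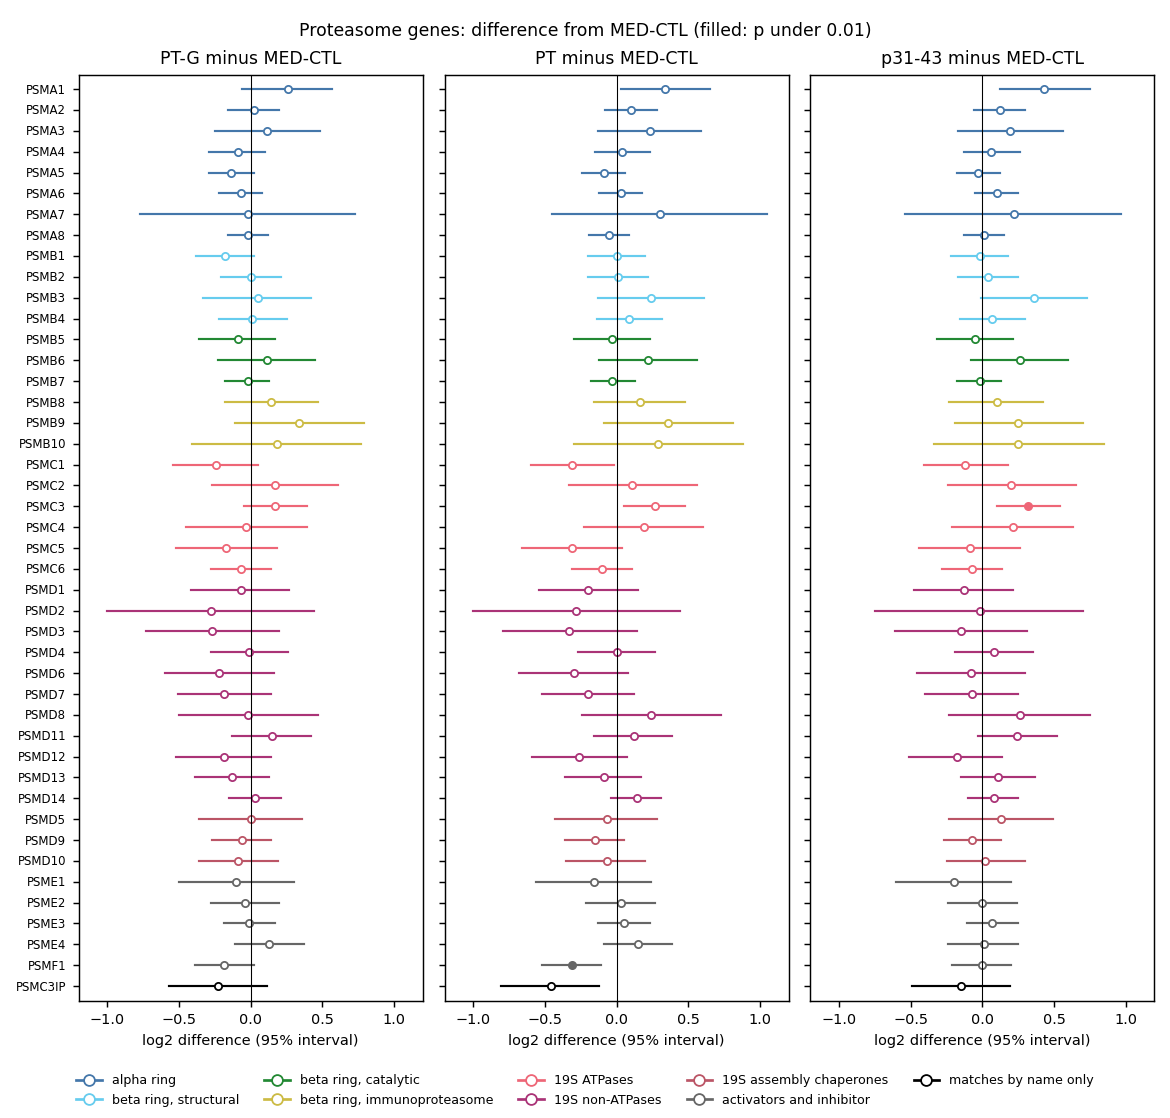
Log2 difference from MED-CTL (horizontal axis) of each of the 44 members (vertical axis, by role) for PT-G, PT and p31-43, with limma's 95% interval from 4 arrays per condition and filled points at a nominal p under 0.01. The filled points are PSMF1 after PT (-0.31) and PSMC3 with p31-43 (0.32), and the 3 panels share the MED-CTL arrays.

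Setting PT-G against PT asks what gliadin adds to the digest. No member passed the nominal p under 0.01 (0.0903% of probes did) or a p under 0.05 in limma (0.781% did), and none had groups that did not overlap (0.631% of probes did). No member and no probe (0%) passed the adjusted threshold. Differences lay between -0.32 and 0.23 with a median of -0.015, where all probes had 0.007. Median scaling moved the members' median to 0.002 (all probes 0.068). Of 43 members 16 were higher and 27 lower, and 52.9% of all probes were higher. All 7 alpha ring members above background were lower. The smallest p-values were those of PSMB1 (-0.18 ± 0.09), the alpha subunit PSMA4 (-0.14 ± 0.09) and PSMC3IP (0.23 ± 0.16), all with a limma adjusted p of 1. The PSMB1 arrays read 17.12, 17.12, 16.73 and 17.09 in PT-G and 17.07, 17.15, 17.23 and 17.33 in PT. The low PT-G array was on slide 3, and within the early runs the difference was 0.00. The interval lay inside 1.5-fold for 38 of 43 members and inside 2-fold for 42, and 70.6% of all probes lay inside 1.5-fold.

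The digests were also set against the peptide. PT-G minus p31-43 had no nominal call (3.73% of probes passed), 1 member with a p under 0.05 in limma (8.57% of probes) and no adjusted call (1.16% of probes). Its median was -0.095 with 36 of 43 members lower, while the median over all probes was -0.001 and 49.6% of them were higher. The members' median depended on the scaling, and it lay below the median over all probes in each scaling given here. With the processed signal it was -0.009 for the members and 0.099 for all probes, and under median scaling -0.073 and 0.106. The groups did not overlap for PSMA6, an alpha subunit, and for PSMB3, both lower in PT-G, where 5.81% of all probes did not overlap. PSMA6 read 15.89, 15.84, 15.70 and 15.87 in PT-G and 16.09, 16.02, 15.91 and 15.94 with p31-43, a difference of -0.17 ± 0.07 (adjusted p = 0.474 with limma). PSMB3 differed by -0.32 ± 0.17, and PSMD13, a lid subunit of the cap, by -0.25 ± 0.12 (adjusted p = 0.642). In the fit blocked on run, PSMD13 passed the nominal threshold and not the adjusted one (adjusted p = 0.0865). PT minus p31-43 had a median of -0.055, where all probes had -0.003 (0.021 and 0.11 with the processed signal). Of 43 members 31 were lower, and 48.9% of all probes were higher. The comparison had 1 nominal call, PSMF1 (-0.31 ± 0.10, adjusted p = 0.239 with limma), against 3.15% of probes, 1.72% on the lower side. PSMF1 was also the member without overlap between these groups (5.92% of probes), and no member passed limma's adjusted threshold (0.769% of probes did), with 1 at a p under 0.05 (7.15% of probes). Leaving out p31-43 replicate 3 or 4 or PT replicate 1 or 4 ended the nominal call (differences from -0.36 to -0.25 over all arrays left out), as did the processed signal, median scaling, dim probes left out, probes averaged, array weights, only the 2 groups, only the early runs and slide 3 left out. PSMC3IP (-0.31 ± 0.16) and PSMD13 (-0.21 ± 0.12) came next. Blocking on run brought PSMC3IP past the nominal threshold (adjusted p = 0.0999 with limma), and blocking on slide gave PSME4 (0.14 ± 0.11 unblocked) an adjusted p of 0.03.

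The alpha ring, described by counts, had 7 members above background, with 3 higher and 4 lower after PT-G, 6 higher and 1 lower after PT, and 6 higher and 1 lower with p31-43. Its extremes were PSMA5 and PSMA1 in all 3 comparisons with MED-CTL. The 4 structural beta subunits lay between -0.18 (PSMB1) and 0.05 (PSMB3) after PT-G, between 0.00 and 0.24 (PSMB3) after PT and between -0.02 and 0.36 (PSMB3) with p31-43. The 6 cap ATPases ranged from -0.24 (PSMC1) to 0.17 (PSMC2) after PT-G and from -0.31 (PSMC1) to 0.27 (PSMC3) after PT, with no nominal call in either. Of the 11 non-ATPase cap subunits 9 were lower after PT-G (median -0.13), 7 after PT (median -0.20) and 6 with p31-43 (median -0.02). Their lowest were PSMD2 (-0.28) after PT-G, PSMD3 (-0.33) after PT and PSMD12 (-0.18) with p31-43. The 3 chaperones of cap assembly, PSMD5, PSMD9 and PSMD10, stayed between -0.15 and 0.13 in these comparisons. The activators and the inhibitor, 5 genes, lay between -0.19 (PSMF1) and 0.13 (PSME4) after PT-G, -0.31 (PSMF1) and 0.15 (PSME4) after PT, and -0.20 (PSME1) and 0.07 (PSME3) with p31-43. The 18 other probes of the 14 genes with more than 1 probe had the opposite sign to the brightest probe in 5 cases after PT-G, 5 after PT and 7 with p31-43, and the largest gap between probes was 0.56, for PSME1 after PT.

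None of the 3 catalytic subunits passed a nominal p under 0.01 in any comparison. PSMB5 carries the chymotrypsin-like site, the target of bortezomib, and read 15.95, 15.95, 16.01 and 15.48 in MED-CTL, 15.85, 15.88, 15.76 and 15.53 in PT-G, 16.00, 15.81, 15.71 and 15.75 in PT, and 15.82, 15.82, 15.95 and 15.60 with p31-43. Its differences from MED-CTL were -0.09 ± 0.12, -0.03 ± 0.12 and -0.05 ± 0.12, and the lowest arrays of MED-CTL, PT-G and p31-43 were all from run 4. PSMB7, with the trypsin-like site, had the narrowest range of the 3, from 15.90 to 16.19 over the 16 arrays, and its differences of -0.02, -0.03 and -0.02 had 95% intervals between -0.18 and 0.13.

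PSMB6 encodes the subunit with the caspase-like site. It read 15.43, 15.34, 14.63 and 15.21 in MED-CTL, 15.39, 15.32, 14.87 and 15.47 in PT-G, 15.38, 15.31, 15.42 and 15.38 in PT, and 15.40, 15.49, 15.26 and 15.49 with p31-43. The MED-CTL and PT-G arrays of slide 3 were the lowest of all. Its differences of 0.11 ± 0.16, 0.22 ± 0.16 and 0.26 ± 0.16 were -0.03, -0.05 and 0.06 within the early runs. After PT-G the difference ran from -0.07 to 0.24 over single arrays left out.

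The immunoproteasome subunits PSMB8, PSMB9 and PSMB10 were all higher than MED-CTL in each treated condition, by 0.10 to 0.36, and none passed a nominal p under 0.01 in limma's unblocked fit. That direction turned with 1 array left out for PSMB10 after PT-G (from -0.03 to 0.39) and for PSMB8 with p31-43 (from -0.06 to 0.19). PSMB8 replaces PSMB5 and ranged from 7.73 to 8.46, with differences of 0.14 ± 0.15 after PT-G, 0.16 ± 0.15 after PT and 0.10 ± 0.15 with p31-43. PSMB10 replaces PSMB7 and ranged from 12.11 to 13.46. Its lowest value in MED-CTL (12.11), p31-43 (12.52) and PT-G (12.29) was the slide 3 array, and its differences were 0.18 ± 0.28, 0.29 ± 0.28 and 0.25 ± 0.28. They ran from 0.08 to 0.46 after PT and from 0.04 to 0.42 with p31-43 over single arrays left out. Blocking on slide brought PSMB10 past the nominal threshold with p31-43 (0.29, adjusted p = 0.22 with limma).

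PSMB9, which replaces PSMB6, measured 8.01, 8.0, 8.0 and 8.81 in MED-CTL. It measured 8.56, 8.48, 8.23 and 8.92 in PT-G, 8.28, 8.32, 8.58 and 9.06 in PT, and 8.31, 8.50, 8.41 and 8.62 with p31-43. Every treated array lay above the first 3 control arrays, and the fourth control array lay above most treated ones. The differences were 0.34 ± 0.21 (adjusted p = 0.842), 0.36 ± 0.21 (adjusted p = 0.71) and 0.25 ± 0.21 (adjusted p = 1) with limma. In the fit that blocks on slide, the adjusted p for PT-G was 0.0222 at a difference of 0.34, and within the early runs it was 0.0372 at 0.51, while the late runs gave 0.17. Blocking on run gave 0.125. The slide block also brought PSMB9 past the nominal threshold after PT (0.28, adjusted p = 0.0747) and with p31-43 (0.37, adjusted p = 0.195). Over single arrays left out the differences ran from 0.22 to 0.54, 0.19 to 0.56 and 0.19 to 0.46. Run 4 held the highest PSMB9 value of every condition.

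**Figure D2:**
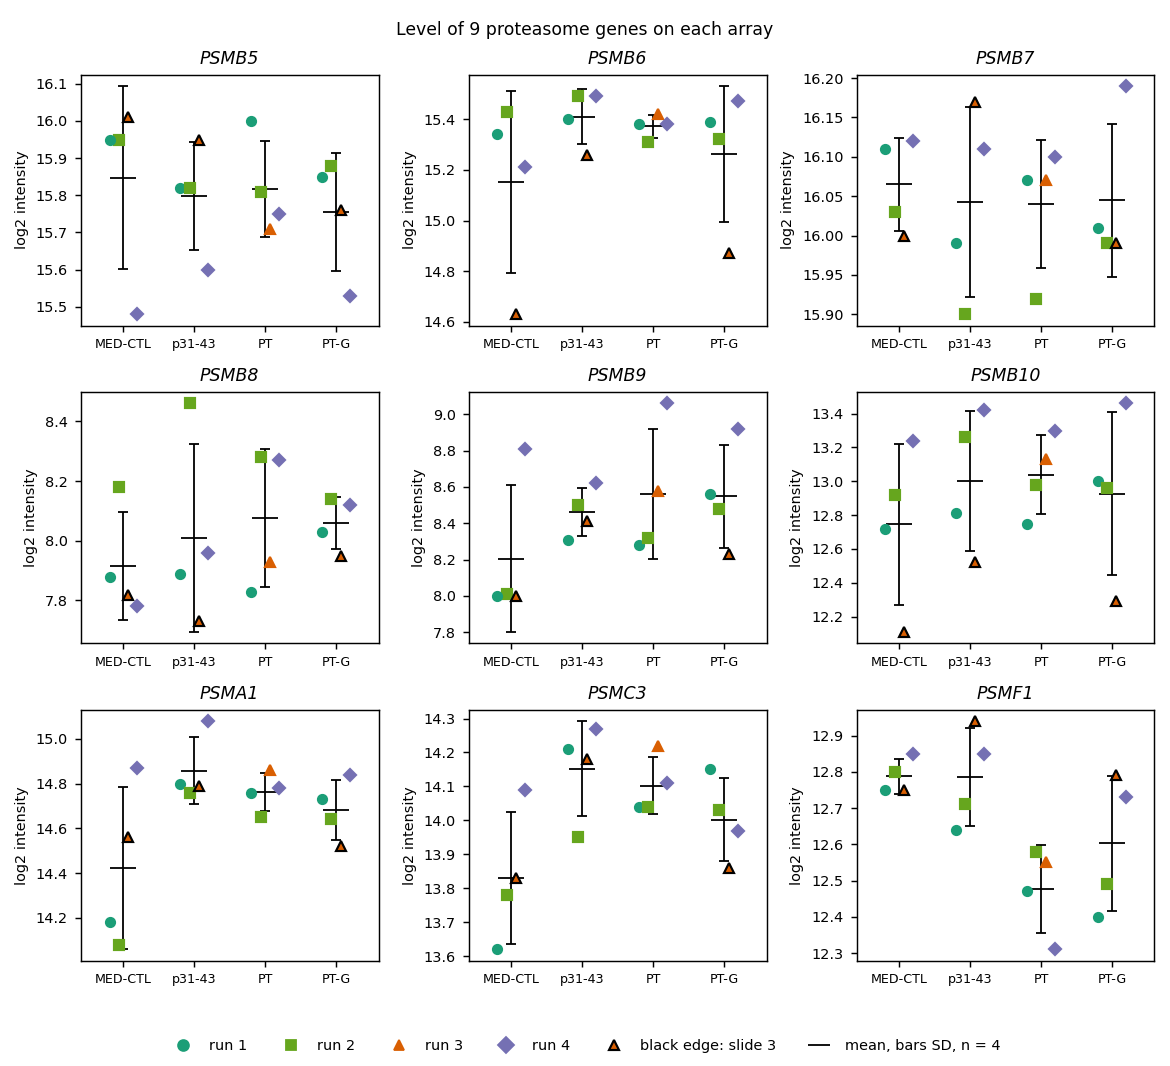
Log2 intensity (vertical axes, a separate scale per panel) of the 6 catalytic and immunoproteasome subunits and of PSMA1, PSMC3 and PSMF1 on each of the 16 arrays, by condition (horizontal axis), with the mean and SD of 4 arrays and symbols by run. PSMF1 in PT lies below all MED-CTL arrays, PSMB9 lies at 8.0 to 8.01 on 3 MED-CTL arrays and at 8.81 on the fourth, and the slide 3 arrays (black edge) are the lowest of PSMB10 in their conditions.

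The antigen processing genes that accompany the immunoproteasome, such as TAP1, TAP2, B2M and IRF1, of which 9 of 11 were well above background on all arrays, gave no nominal call in any comparison with MED-CTL. Their differences lay between -0.12 and 0.14 after PT-G, between -0.33 and 0.17 after PT and between -0.16 and 0.16 with p31-43. Of the 7 ubiquitin and E1 enzyme genes none had a nominal call either, with medians of 0.04, 0.05 and 0.04.

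Among the regulators, MAFF rose in both digests. MAFF is a small MAF protein that pairs with NFE2L1 or NFE2L2 at antioxidant response elements. It read 10.56, 10.07, 9.54 and 9.29 in MED-CTL, 11.90, 11.99, 11.60 and 11.29 in PT-G, 12.10, 11.75, 11.02 and 11.43 in PT, and 10.30, 10.49, 9.15 and 9.01 with p31-43. Every digest array lay above every MED-CTL and p31-43 array. The difference from MED-CTL was 1.83 ± 0.37 (3.54-fold, adjusted p = 0.0309 with limma) for PT-G and 1.71 ± 0.37 (3.27-fold, adjusted p = 0.0467) for PT, and the same digests set against p31-43 gave adjusted p-values of 0.0188 and 0.034. These last calls ended in 4 and 6 of the 16 arrays left out in turn (1.71 to 2.21 with an adjusted p up to 0.0688, and 1.59 to 2.09 with one up to 0.116), and with only the 2 groups, only the late runs or slide 3 left out. With p31-43 it was -0.13 ± 0.37 from MED-CTL. PT-G minus PT gave 0.12 ± 0.37.

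MAFG, a second small MAF protein, read 13.28, 13.52, 12.78 and 13.68 in MED-CTL and 14.20, 14.03, 13.95 and 14.45 in PT-G. It rose by 0.84 ± 0.17 after PT-G (adjusted p = 0.0364 with limma), and its second probe gave 0.92 ± 0.15 (adjusted p = 0.0116). After PT the values were 0.79 ± 0.17 (adjusted p = 0.0543) and 0.88 ± 0.15 (adjusted p = 0.0164) for the same probes. With p31-43 the difference was 0.02 ± 0.17.

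NFE2L2, the oxidative stress regulator also called NRF2, read 13.02, 12.96, 13.04 and 13.44 in MED-CTL and 13.66, 13.61, 14 and 14.19 in PT-G, with no overlap. It rose by 0.75 ± 0.16 after PT-G (1.68-fold, adjusted p = 0.0434 with limma) on its brightest probe. After PT it differed by 0.58 ± 0.16 (adjusted p = 0.147), a value that became an adjusted call when limma was blocked on the replicate number (0.00781), run (0.00561) or slide (0.0104), and with p31-43 by 0.23 ± 0.16. Its second probe, well above background on all arrays, gave 0.00 ± 0.17, 0.13 ± 0.17 and 0.11 ± 0.17 in the same order, and over both probes averaged the PT-G difference was 0.38 with an adjusted p of 0.323. Of all probes, 0.593% passed the adjusted threshold upward after PT-G and 0.437% after PT, and against p31-43 0.683% and 0.427% did. The adjusted calls of MAFF, MAFG and NFE2L2 after PT-G were also lost with the processed signal, in fits on only the groups compared or only the late runs, and without MED-CTL replicate 2 or 3 or PT-G replicate 1, 2 or 4. Of the 16 arrays left out in turn, 7 ended the call of MAFF, 11 that of MAFG and 13 that of NFE2L2 after PT-G, with differences from 1.63 to 2.06, 0.66 to 0.96 and 0.64 to 0.86 and adjusted p-values up to 0.104, 0.122 and 0.148. The call of MAFF after PT ended in 12 of them (1.52 to 1.94, adjusted p up to 0.147). Both MAFF calls against MED-CTL also ended with slide 3 left out. Blocking on run or on slide kept them (adjusted p between 0.0002 and 0.00235).

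NFE2L1 itself, the regulator most directly tied to subunit transcription, differed by -0.17 ± 0.20, 0.09 ± 0.20 and 0.07 ± 0.20 after PT-G, PT and p31-43. Its other 3 probes gave between -0.40 and 0.87 without a nominal call. The 15 genes listed for control by NFE2L1, among them DDI2, NGLY1, VCP and the derlins, held 3 nominal calls after PT-G, 3 after PT (MAFF, MAFG and NFE2L2 in both) and none with p31-43, with medians of 0.03, 0.09 and 0.04. The 17 partners, assembly factors and receptors outside the PSM names had no nominal call after PT-G or p31-43 and 1 after PT, KIAA0368, which encodes the proteasome adaptor ECM29 and is named here after its value was seen (-0.30 ± 0.09, adjusted p = 0.234 with limma).

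POMP, the maturation factor of the core particle, differed by 0.22 ± 0.47, 0.65 ± 0.47 and 0.46 ± 0.47 after PT-G, PT and p31-43. POMP read 14.31, 14.05, 12.61 and 14.32 in MED-CTL and 14.54, 14.35, 12.65 and 14.65 in PT-G, against 13.99, 14.51, 14.57 and 14.83 in PT and 14.24, 14.79, 13.48 and 14.63 with p31-43, and the low array of MED-CTL, PT-G and p31-43 was on slide 3. Its 95% interval after PT-G ran from -0.78 to 1.23. ADRM1, a ubiquitin receptor of the cap, differed by -0.04 ± 0.22, 0.11 ± 0.22 and 0.12 ± 0.22, and its lowest arrays (13.47 in MED-CTL and in PT-G, 13.87 with p31-43) were on slide 3 too.

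**Figure D3:**
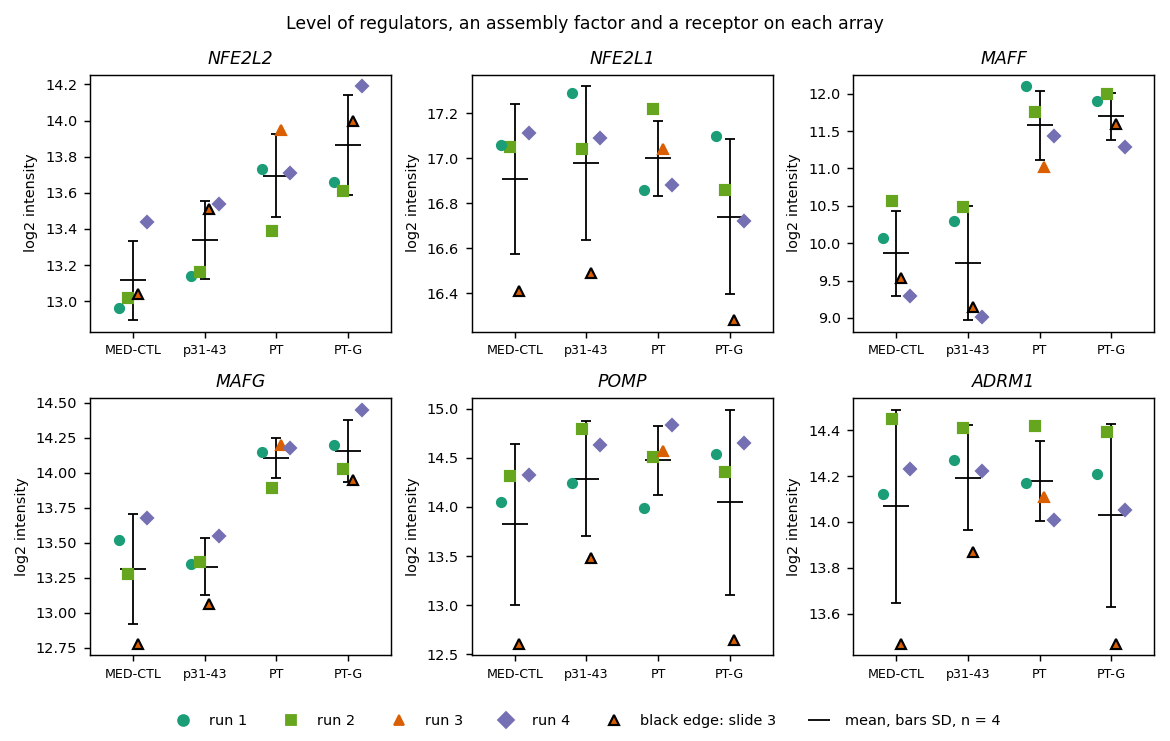
Log2 intensity (vertical axes, a separate scale per panel) of NFE2L2, NFE2L1, MAFF, MAFG, POMP and ADRM1 on each array, by condition (horizontal axis), with the mean and SD of 4 arrays and symbols by run. MAFF in PT and PT-G lies above all MED-CTL and p31-43 arrays, and POMP on the slide 3 arrays of MED-CTL (12.61) and PT-G (12.65) lies far below the others.

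The members varied more between runs than between conditions. In a breakdown of each gene's sum of squares over 4 conditions and 4 runs, the median member had 16.6% between conditions, 48.6% between runs and 30.6% in the rest, where an even spread would put 20% in each of the first 2. The medians over all 40705 probes read on every array were 14.8%, 44.8% and 32%. The share between runs was the larger in 36 of 44 members (81.8%), and in 76.5% of all probes. PSMB2 lay at one end (83.1% between runs, 1.81% between conditions), and PSMF1 (57.7% between conditions) and PSMC3 (50.4%) at the other. The SD over the 16 arrays had a median of 0.198 for the members and 0.232 for all probes.

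**Figure D4:**
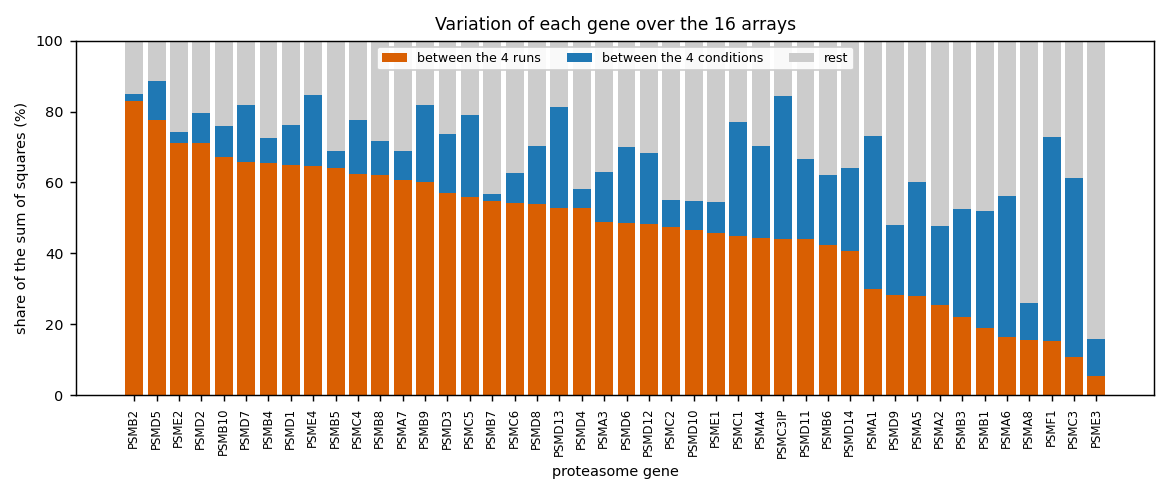
Share of the sum of squares (vertical axis, %) between the 4 runs, between the 4 conditions and in the rest, for each of the 44 members (horizontal axis) over 16 arrays. The share between runs is highest for PSMB2 (83.1%) and the share between conditions for PSMF1 (57.7%).

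Members on slide 3 differed from their other arrays in both directions. Averaged over the 3 slide 3 arrays, each against the other 3 arrays of its condition, 8 members were lower by more than 0.3 and 8 higher by more than 0.3, as were 16.4% and 19.8% of all probes. PSMA7, an alpha ring subunit, was lowest, at 14.61 in MED-CTL, 15.50 with p31-43 and 14.81 in PT-G on slide 3, while its other 13 arrays lay between 15.94 and 16.27. Those slide 3 arrays were 1.54, 0.64 and 1.25 below the mean of the other arrays of their condition. PSMB10, PSMD8, PSMC4, PSMB6, PSMB3, PSMA3 and PSMD4 followed. PSMD3, a large cap subunit, was highest, 0.62, 0.39 and 0.53 above, followed by PSME1, PSMC5, PSMD1, PSMD2, PSMD6, PSMD12 and PSME4. PT replicate 3, of the same run but on slide 5, differed from the other PT arrays by over 0.3 downward for 2 members and upward for 2, against 12% and 11.4% of all probes.

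The members were also split into core and cap genes, a split made after the values were seen and left untested. The cap genes here include the assembly chaperones PSMD5, PSMD9 and PSMD10. On MED-CTL replicate 3, the 17 core genes well above background lay at a median of -0.12 from their own means, and the 20 cap genes at 0.26. For PT-G replicate 3 the values were -0.21 and 0.07, and on PT-G replicate 4 they were 0.11 and -0.20. In the comparison of PT with MED-CTL the median was 0.10 for the core genes and -0.10 for the cap genes. Without slide 3 it was 0.04 and -0.07, and within the early runs, where both medians had the same sign, -0.05 and -0.07. For PT-G minus PT the medians were -0.09 and 0.03. There 1 of the 17 core genes was higher, against 7 without slide 3 and 11 within the early runs. PSMD2 was the widest case in run 4, at 13.08, 12.83 and 12.52 in p31-43, PT and PT-G against 13.49 in MED-CTL of that run and between 13.31 and 14.24 on all arrays of the other runs.

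**Figure D5:**
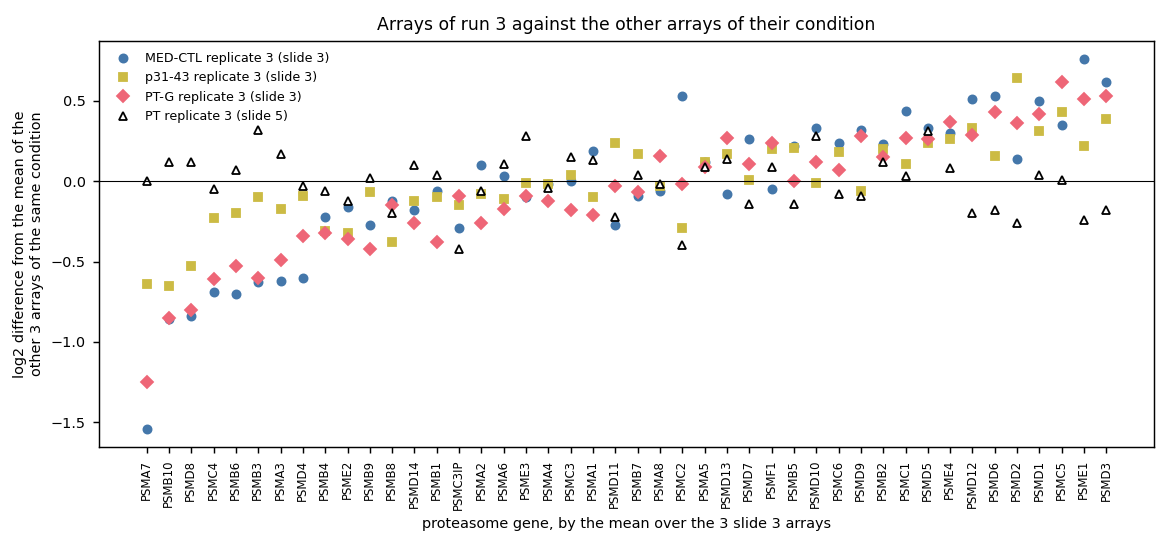
Log2 difference (vertical axis) of each run 3 array from the mean of the other 3 arrays of its condition, for the 44 members (horizontal axis) in order of the mean over the 3 arrays of slide 3. PSMA7 is 1.54 lower in MED-CTL and 1.25 lower in PT-G, PSMD3 is 0.62 and 0.53 higher, and PT replicate 3, on slide 5, stays nearer to 0 for both.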

How the data were processed

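RNA from 16 Caco-2 cultures was measured on 1-colour Agilent whole genome arrays, 4 per condition, with no replicate pooled. The deposited scanner files hold intensity values, the median foreground of each spot and its local background, as Agilent Feature Extraction 9.5.3.1 gave them per the file headers. The deposited log2 table holds the same medians after the authors' quantile normalization without background correction, which leaves dim probes compressed toward the background. It was matched here to a largest difference of 5e-09. Of the 45015 spots per array, 1639 were controls and left out. Medians of the rest were quantile normalized in limma 3.58.1 (R 4.3.3), 1774 outlier spots in all over the 16 arrays were then removed, spots of a probe were averaged, and 40982 of 41000 probes were fitted with 1 mean per condition over all 16 arrays and moderated tests. As in the study, a nominal p under 0.01 was used, beside a Benjamini-Hochberg adjusted p under 0.05 over all probes. The number of arrays limits the precision. Figures were drawn with matplotlib.

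Genes named singly were, per comparison, the members with an adjusted p under 0.05 or else the 3 with the smallest p, the catalytic and immunoproteasome subunits, POMP, ADRM1, NFE2L1 and NFE2L2, and pathway genes with an adjusted p under 0.05. Others are given by counts and by the extremes of each role. The members and lists were chosen with earlier results of these data known. Replicate numbers of the labels were checked by correlating the deviations of same-numbered arrays from their condition means over probes. All 4 pairs were over 0.1 for PT-G, p31-43 and MED-CTL among each other and for PT with p31-43, but not for PT with MED-CTL (lowest -0.00542) or PT-G with PT (lowest 0.0492). MED-CTL replicate 1 belonged to run 2 and replicate 2 to run 1. Paired by run, the lowest correlation with MED-CTL was 0.628 for PT-G and 0.538 for p31-43, against 0.395 and 0.262 by replicate number. Alternatives changed the signal, scaling, filters, probe rule, blocks, weights and arrays used, and the script was tested on simulated data.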

Additional observations from a re-analysis of the deposited data

Results flagged for a closer look

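In 88 sets of 4 arrays, 1 for each of 22 named genes in each condition, 10 had 1 array far from the other 3 by Dixon's criterion, which chance alone meets in about 1 set in 20. Of these, 5 were replicate 3 arrays of slide 3, all on the low side. They were NFE2L1 in MED-CTL (16.41 against 17.05 to 17.11), POMP in MED-CTL (12.61 against 14.05 to 14.32), POMP in PT-G (12.65 against 14.35 to 14.65), PSMB1 in PT-G (16.73 against 17.09 to 17.12) and PSMB3 in PT-G (14.11 against 14.68 to 14.76).

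The other 5 were replicate 4 arrays, of run 4. In MED-CTL they were NFE2L2 (13.44 against 12.96 to 13.04), PSMB9 (8.81 against 8.0 to 8.01) and PSMB5, which was low (15.48 against 15.95 to 16.01). PSMA1 with p31-43 (15.08 against 14.76 to 14.80) and PSMB7 in PT-G (16.19 against 15.99 to 16.01) were high.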

How the results depend on the processing

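None of the 11 named differences past their threshold changed sign under the alternatives run. The members' median moved from its reported value by less than 0.108 in all of them, though its sign turned in some scalings. That value is the pooled SD of the members' median level over single arrays of a condition. It does not measure the spread of a difference between conditions. With only the late runs, the members inside 1.5-fold fell to between 17 and 21 over the 6 comparisons, counted over all 44 with PSMA8. On the same count the unblocked fit of all arrays had between 29 and 39. Blocking on run gave between 36 and 43, and blocking on slide between 42 and 44. Counts of members with a nominal p under 0.01 did move. The share of all probes in each alternative is not given here. These counts, and those inside 1.5-fold, therefore do not show whether members moved more than other probes. For PT-G minus MED-CTL the count went from 0 to 2 with the slide as a block and to 3 with array weights or only the early runs, and the adjusted count from 0 to 1 (slide as a block) and 2 (only early runs). For PT minus MED-CTL it went from 1 to 0 with the processed signal, median scaling, dim probes left out or probes averaged, to 2 with the early or late batch as a block, to 3 with array weights and to 4 when blocked on run or on slide. Its adjusted count was 1 with the run block, the batch block, array weights or only the early runs, and 2 with the slide block. For p31-43 minus MED-CTL it was 0 with the processed signal, dim probes left out, only the 2 groups compared, only the late runs or slide 3 left out, 2 with median scaling, the deposited table, probes averaged, the run or batch block, array weights or only the early runs, and 3 with the slide block. Its adjusted count was 1 with only the early runs. PT-G minus PT had 1 with only the late runs. PT-G minus p31-43 had 1 with the run block and 2 with array weights. PT minus p31-43 went from 1 to 0 with the processed signal, median scaling, dim probes left out, probes averaged, array weights, only the 2 groups, only the early runs or slide 3 left out, to 2 with the run or batch block or only the late runs, and to 3 with the slide block, where its adjusted count was 1. The cause was not tested. Leaving out slide 3 was chosen after the data were seen.

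With the replicate number as a block, PT minus MED-CTL had 2 nominal and 1 adjusted calls in limma, and p31-43 minus MED-CTL had 2 and 0. The replicate block moved no other count of calls past 1.5 times.

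Leaving out 1 array at a time gave nominal counts from 0 to 1 for PT-G, 0 to 3 for PT and 0 to 2 for p31-43 against MED-CTL, the highest in each without MED-CTL replicate 4, and from 0 to 1 for PT minus p31-43. Without MED-CTL replicate 4, all nominal calls against MED-CTL were on the higher side, whereas the PT call with all arrays was on the lower side. For PT-G minus PT and PT-G minus p31-43 the count stayed at 0, and every adjusted count stayed at 0. Medians ran from -0.054 to -0.017, -0.019 to 0.03 and 0.016 to 0.07 for PT-G, PT and p31-43 against MED-CTL, from -0.047 to -0.007 for PT-G minus PT, from -0.118 to -0.07 for PT-G minus p31-43 and from -0.072 to -0.034 for PT minus p31-43. Of 43 named differences not past their threshold, 14 passed it and 15 changed sign in at least 1 alternative. PSMA8 lay below the well-above-background limit throughout, so no difference in it could be read.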
